A study of Mus musculus with 8 samples.

Results

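The genes described here are the secreted and cell-surface components that open the Wnt pathway: the Wnt ligands, the Frizzled receptors and 3 families of secreted modulators. They were taken from the count table by symbol, as every gene whose name begins with Wnt, Fzd, Rspo, Sfrp or Dkk followed by a digit. That gave 29 of the 16130 genes in the table: 11 Wnt ligands, all 10 numbered Frizzled receptors from Fzd1 to Fzd10, the R-spondins Rspo1 and Rspo3, 4 secreted Frizzled-related proteins (Sfrp1, Sfrp2, Sfrp4 and Sfrp5) and the Dickkopf genes Dkk2 and Dkk3. Both groups consisted of mice labelled Tcf4Het/+ ApcMin/+, so the Min allele of the tumour suppressor Apc and a heterozygous Tcf4 allele were present in both. The EE group (n = 4 libraries) had been kept for 4 months in enriched housing and the NE group (n = 4) for 4 months in conventional, non-enriched housing. Total RNA of the distal colon was depleted of ribosomal RNA and sequenced. The age of the animals is not given in the sources used here, and the labels do not say that each library is a separate animal, so p-values measure the spread between these libraries, which may be technical.

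In the Wnt pathway a lipid-modified ligand binds a Frizzled receptor together with the co-receptor Lrp5 or Lrp6, which keeps beta-catenin from being degraded and lets it act with TCF/LEF factors on target genes. R-spondins raise the response by removing the ubiquitin ligases Znrf3 and Rnf43, which clear Frizzled from the surface, whereas secreted Frizzled-related proteins bind ligands and most Dickkopf proteins block the co-receptors. In the gut the pathway maintains the crypt stem cells, many of its ligands and R-spondins come from the stroma below the epithelium, and loss of Apc switches the pathway on inside the cell.

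To show what lies before the start sites of these genes, 4 upstream sequences are printed: those of Wnt6, Wnt16 and Dkk2, whose mean levels were higher in EE, and that of Fzd7, which varied least of the 29 genes between libraries relative to its level. Each is the 250 bases before the RefSeq start on build GRCm38.p6, read 5′ to 3′ on the gene's strand. Capitals mark a match to one of 3 motifs searched on both strands: the TCF/LEF-type heptamers CTTTGAT and CTTTGTT, which cannot both match at the same position, and the TATA-type hexamer TATAAA.
Wnt6, chr1:74771642-74771891, plus strand: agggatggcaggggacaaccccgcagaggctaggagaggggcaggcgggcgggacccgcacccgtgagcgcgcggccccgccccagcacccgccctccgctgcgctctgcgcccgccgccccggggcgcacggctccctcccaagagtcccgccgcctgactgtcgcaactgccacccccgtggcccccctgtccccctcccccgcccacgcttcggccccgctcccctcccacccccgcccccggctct
Wnt16, chr6:22287977-22288226, plus strand: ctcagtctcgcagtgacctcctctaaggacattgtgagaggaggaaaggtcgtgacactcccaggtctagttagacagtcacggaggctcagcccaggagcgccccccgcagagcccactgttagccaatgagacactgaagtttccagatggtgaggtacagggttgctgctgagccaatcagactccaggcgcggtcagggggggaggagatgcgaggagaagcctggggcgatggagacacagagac
Dkk2, chr3:132085042-132085291, plus strand: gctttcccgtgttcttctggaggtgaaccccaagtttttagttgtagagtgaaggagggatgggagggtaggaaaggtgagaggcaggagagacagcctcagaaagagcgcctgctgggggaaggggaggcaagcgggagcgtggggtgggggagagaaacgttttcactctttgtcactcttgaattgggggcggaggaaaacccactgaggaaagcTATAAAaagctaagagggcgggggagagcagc
Fzd7, chr1:59481897-59482146, plus strand: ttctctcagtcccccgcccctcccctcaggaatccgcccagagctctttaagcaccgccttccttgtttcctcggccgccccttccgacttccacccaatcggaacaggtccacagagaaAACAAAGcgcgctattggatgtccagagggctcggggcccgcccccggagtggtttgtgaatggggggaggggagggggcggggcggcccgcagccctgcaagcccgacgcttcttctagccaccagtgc
A TATAAA begins 32 bases before the start of Dkk2, and a CTTTGTT on the opposite strand lies with its first base 130 bases before that of Fzd7. None of the motifs occurred in the windows of Wnt6 and Wnt16. RefSeq gave 21 such windows for 18 of the 29 members. Either heptamer was found in 3 of the 21 windows (1 each of Fzd7, Wnt11 and Wnt5b), against 8.06% of all 32851 promoter windows, and TATAAA in 3 (Dkk2, Fzd1 and Wnt11), against 12.4%. The Wnt5b window with the match lies wholly inside the annotated gene, before an internal start, and the window before the whole gene had no match. The Wnt6 window was 79.6% G and C and the Dkk2 window 55.6%, with a median of 52.4% over all windows. A match describes the letters only.

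Each library held between 4735764 and 10586851 counts, of which the 29 genes took 2594 to 6211. Markers of epithelium (9 of 9 genes), fibroblasts (10 of 10) and smooth muscle (10 of 10) had rows in the table, and none of them was at 0 in any library. Library EE 4 stood apart: of 16 cell type marker lists it had the lowest summed level of the 8 libraries in 11, the exceptions being epithelium, interstitial cells of Cajal, lymphatic endothelium, enteric neurons and squamous epithelium. In CPM, which are counts scaled to a common library size, its fibroblast markers summed to 488 against 1284 to 2099 in the other EE libraries and 1618 to 1836 in NE. Its smooth muscle markers summed to 697 CPM against 2364 to 4464 in the other EE libraries and 3570 to 5760 in NE. Values without EE 4 are therefore given for the members. EE 3 also differed in its markers. Its epithelial markers summed to 7635 CPM, against 8685 to 11596 in the other EE libraries and 8817 to 11809 in NE. It was lowest of the 8 as well for interstitial cells of Cajal (195 CPM) and enteric neurons (22.8 CPM). In bulk tissue, fewer cells of a type and less RNA per cell cannot be told apart. In the authors' deposited table the sign of the log2 fold change was opposite to EE minus NE in 23 of the 24 members tested, all but Fzd3, and in 97.8% of all genes tested. The header names no numerator, so a ratio of NE over EE and exchanged column names cannot be told apart, and EE and NE here mean the libraries with those labels.

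The first question was which members the distal colon expressed. Genes of these families without a row in the count table could not be ranked, and every gene in it totals at least 12 counts. Levels were compared between genes as CPM per kilobase of annotated exon, given as mean ± SD over the 8 libraries, on which the median of the 15948 genes with a known length was 5.40. The Dickkopf genes stood at the top on this scale. Dkk2, a secreted ligand of Lrp5 and Lrp6, was at 22.8 ± 7.63 CPM per kb, above 84.4% of genes, and Dkk3, a divergent family member, at 20.7 ± 4.65. Fzd5, a receptor needed for Paneth cell maturation in the small intestine, followed at 14.1 ± 3.55, and then the ligand Wnt6 at 11.2 ± 6.45 and the receptor Fzd1 at 10.1 ± 0.858. Fzd6, a receptor of planar cell polarity, was at 7.41 ± 1.46, the ligand Wnt10a at 7.08 ± 4.60 and Fzd7, a receptor of intestinal stem cells, at 6.35 ± 0.406. This order is by mean. Wnt6 lay above Fzd1 in only 3 of the 8 libraries (medians 9.08 and 9.86 CPM per kb), and Wnt10a above Fzd7 in only 3 (medians 5.43 and 6.35). Sfrp1, the most abundant of the secreted Frizzled-related genes, was at 5.10 ± 1.97, and Wnt5a, a ligand of the beta-catenin-independent branch, at 4.81 ± 1.61.

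The remaining 19 members lay lower, from 2.14 ± 1.18 CPM per kb for Fzd10 to 0.310 ± 0.206 for Wnt3, the ligand that Paneth cells make in the small intestine. Both R-spondins were among them, with Rspo3 at 1.58 ± 0.708 and Rspo1 at 0.691 ± 0.345. So were the ligands Wnt2b (1.77 ± 0.539), Wnt5b (1.51 ± 0.454) and Wnt4 (0.617 ± 0.199). Wnt6 and Wnt10a made up about as much as all other ligands together or more: of the summed CPM per kb of the 11 Wnt genes they held 49.4%, 53.3%, 58.0% and 50.1% in NE 1 to NE 4 and 62.2%, 57.1%, 74.8% and 72.4% in EE 1 to EE 4. Wnt5a held 17.7% to 23.5% of that sum in NE and 6.72% to 21.3% in EE, with the lowest share in EE 4. Among receptors, Fzd5, Fzd1, Fzd6 and Fzd7 together held 77.1% to 84.6% of the Frizzled sum in the 8 libraries. Of the 28 neighbouring pairs in the order of levels, 4 were separated by more than the larger SD of the pair: Dkk3 over Fzd5, Fzd1 over Fzd6, Wnt5a over Fzd10 and Fzd4 over Wnt16. By this rule the order within the other 24 pairs was not resolved beyond the spread between libraries. The SD does not compare genes within a library. Fzd5 lay above Wnt6 in 7 of the 8 libraries, as Fzd1 did above Fzd6, and Dkk3 lay above Fzd5 in 6.

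**Figure D1:**
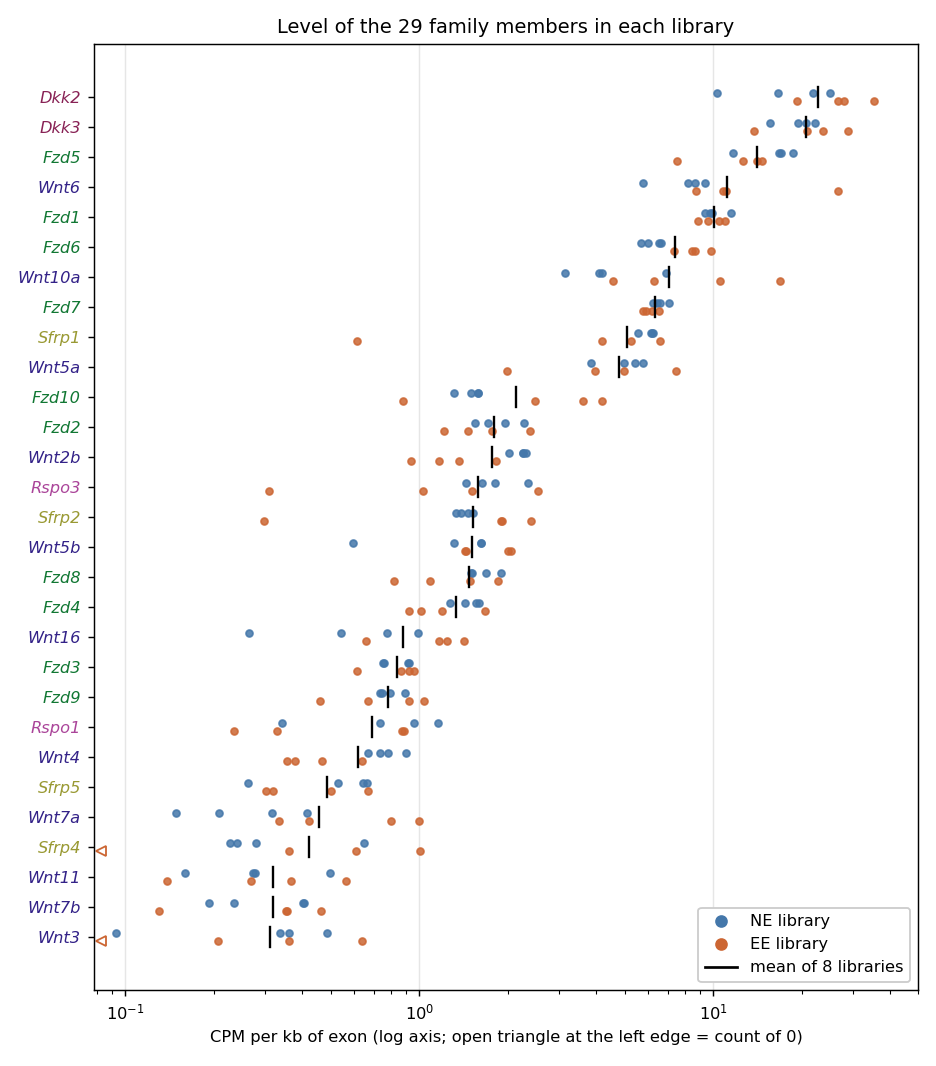
Level of each of the 29 members in CPM per kb of exon (log axis), with 1 point per library (blue NE, orange EE), open triangles for a count of 0 and a black bar at the mean of the 8 libraries. A gap separates the upper 10 members, which end with Wnt5a at a mean of 4.81, from Fzd10 at 2.14 and below, and Fzd7 has the tightest points.

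The second question was whether the members differed between the housing groups. The test was edgeR's quasi-likelihood test on 14311 genes that passed a filter on low counts, with Benjamini-Hochberg adjustment over all of them. It called 0 genes at an adjusted p under 0.05 (0% of genes tested), and so 0 of the 24 members tested. An unadjusted p under 0.05 was found for 1357 genes (9.48%) and 6 members: Fzd6, Wnt10a, Wnt6 and Fzd10 with higher means in EE (5.73% of genes) and Wnt2b and Wnt4 with lower means (3.75%). All 6 had the same adjusted p of 0.520. DESeq2 called 16 genes (0.0993%) and limma-voom 0 (0%), none of them a member. At an unadjusted p under 0.05, DESeq2 had 7 of 29 members (9.77% of genes) and limma-voom 6 of 24 (10.9%). Fzd6, Wnt10a and Wnt2b were among them with every method. DESeq2 had Dkk2 and Wnt7a but not Wnt4, and limma-voom had Dkk2 and Wnt16 but not Wnt6 or Fzd10. Over all 29 members fitted without the filter, 15 log2 fold changes were above 0 and 14 below, with a median of 0.00, against 50.7% above 0 and a median of 0.00 over all 16130 genes. By family, 8 of 11 Wnt genes, 2 of 2 Dickkopf genes, 2 of 4 Sfrp genes, 3 of 10 Frizzled genes and 0 of 2 R-spondins were above 0. The 8 Wnt genes include Wnt3 at 0.0037. Among members that passed the filter, the Wnt count was 5 of 8 and the Sfrp count 1 of 2, and the other families were unchanged.

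**Figure D2:**
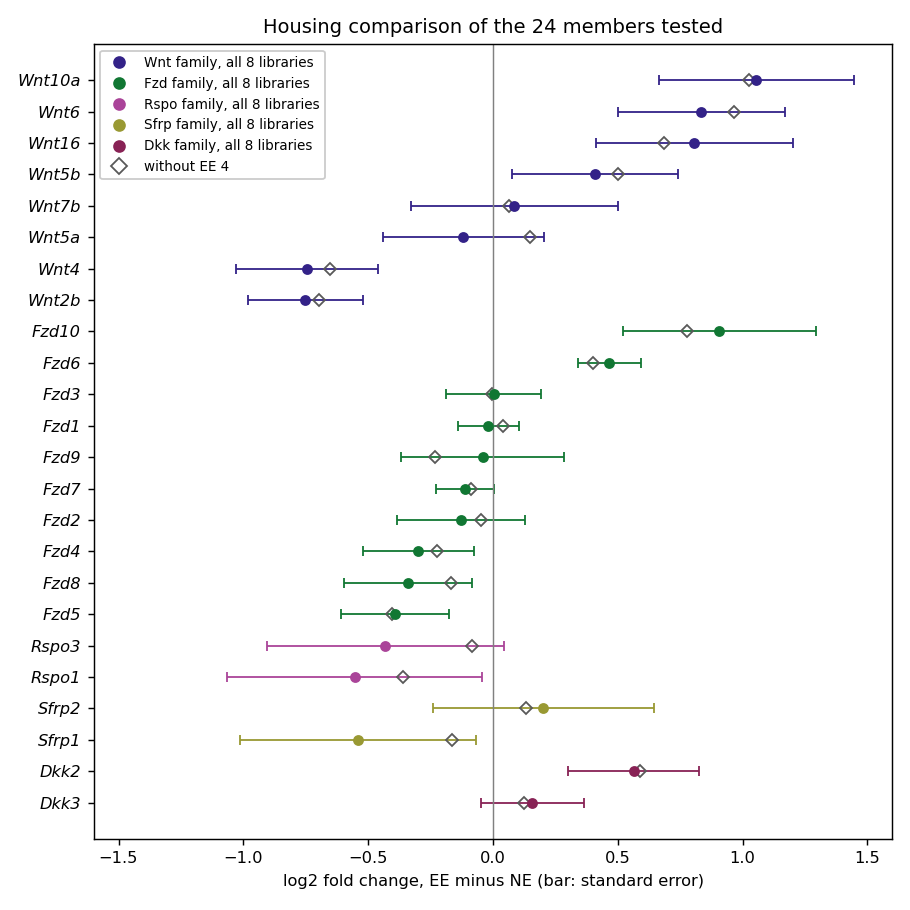
Log2 fold change (EE minus NE) with its standard error for the 24 tested members, ordered by family, with open diamonds for the value without library EE 4. Wnt10a (1.06), Fzd10 (0.91), Wnt6 (0.83) and Wnt16 (0.81) lie farthest to the right and Wnt2b and Wnt4 (−0.75 each) farthest to the left, and the diamonds of Sfrp1 and Rspo3 move towards 0.

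Among the tested ligands, Wnt10a and Wnt6 had the largest excess of EE over NE in the main fit, with Wnt16 (0.81) close behind Wnt6 (0.83). Wnt16 stood above Wnt6 with limma-voom (0.89 against 0.72) and without EE 3 (0.77 against 0.35). Wnt10a and Wnt6 can both signal through beta-catenin, and Wnt10a is best known from tooth and hair development. They are neighbours on chromosome 1 of GRCm38, on the plus strand at 74791516 to 74804179 and 74771892 to 74785322, with 6193 bases and no annotated gene between them. Wnt10a was at 7.74, 10.3, 17.1 and 10.1 CPM in NE 1 to NE 4 and at 15.5, 11.3, 41.7 and 26.0 CPM in EE 1 to EE 4. Its EE 3 and EE 4 values lay above every NE library, while EE 1 and EE 2 lay within the NE range. EE minus NE for Wnt10a was 1.06 (SE 0.39, adjusted p = 0.520 by edgeR) on the log2 scale, 1.03 without EE 4 and 0.65 without EE 3. Wnt6 was at 12.6, 19.1, 20.6 and 18.1 CPM in NE and at 24.2, 19.1, 58.3 and 23.8 CPM in EE. EE 2 lay within the NE range, EE 1 and EE 4 just above it, and EE 3 far above all others. On the log2 scale the difference of Wnt6 was 0.83 (SE 0.33, adjusted p = 0.520 by edgeR), 0.97 without EE 4 and 0.35 without EE 3, so that EE 3 set most of its size.

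These neighbours were the 2 of 29 members with an FDR under 0.05 in the authors' deposited table, at 0.00403 for Wnt10a and 0.0171 for Wnt6. On the log2 scale the authors' deposited table gave them −0.69 and −0.56, negative where the EE columns are higher. Such an FDR was listed for 386 of the 16130 genes (2.39%) in the authors' deposited table, 173 of them with higher EE columns (1.07%). Next among the members in the authors' deposited table were Fzd10 (FDR 0.117) and Dkk2 (FDR 0.180). The edgeR, DESeq2 and limma-voom fits of the same counts gave Wnt10a adjusted p of 0.520, 0.346 and 0.452.

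Wnt2b and Wnt4 ran the other way, and in both of them every EE library lay below every NE library. Of the 24 members tested, these 2 were separated in that direction and 1, Fzd6, in the other, against 2.02% and 2.87% of all genes tested. Wnt2b, a ligand made by intestinal stroma (chromosome 3, 104945272 to 104961921, minus strand), was at 8.53, 9.46, 9.67 and 9.45 CPM in NE and at 7.64, 5.74, 3.93 and 4.91 CPM in EE. The NE libraries lay close together, and EE 1 was the EE library nearest to them. On the log2 scale Wnt2b differed by −0.75 (SE 0.23, adjusted p = 0.520 by edgeR), −0.70 without EE 4 and −0.60 without EE 3. Wnt4 (chromosome 4, 137277489 to 137299726, plus strand), best known from kidney and gonad development, was at 3.79, 3.30, 3.10 and 2.82 CPM in NE and at 1.49, 2.68, 1.96 and 1.59 CPM in EE. These values rest on 17 to 33 counts per NE library and 7 to 14 per EE library. Its log2 difference was −0.75 (SE 0.28, adjusted p = 0.520 by edgeR) and −0.65 without EE 4. In EE 3, where Wnt2b was lowest, fibroblast markers summed to 2099 CPM, the highest of the 8 libraries, and smooth muscle markers to 2364 CPM, below every NE library. The part of either cell type in the Wnt2b and Wnt4 values was not tested.

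For the other ligands the values of the groups overlapped. Wnt5a was at 30.0, 42.4, 39.0 and 45.3 CPM in NE and at 31.0, 38.9, 58.6 and 15.5 CPM in EE, so EE libraries held both its highest and its lowest value. EE minus NE was −0.12 (SE 0.32, adjusted p = 0.895 by edgeR) on the log2 scale and 0.15 without EE 4. Wnt16, known for its action on bone, was at 2.37, 1.15, 3.38 and 4.31 CPM in NE and at 5.10, 2.87, 5.44 and 6.18 CPM in EE. All EE libraries except EE 2 lay above the NE range, and the log2 difference was 0.81 (SE 0.39, adjusted p = 0.524 by edgeR) and 0.68 without EE 4. Wnt5b and Wnt7b differed by 0.41 (SE 0.33) and 0.09 (SE 0.41) on the log2 scale, and their groups overlapped. Leaving out single libraries moved Wnt5b between 0.18 and 0.55 and Wnt7b between −0.12 and 0.32, the lowest of Wnt7b being without EE 3.

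Wnt3, Wnt7a and Wnt11 did not pass the filter on low counts. Wnt7a, a ligand best known from limb and uterus, had 3, 7, 14 and 4 counts in NE 1 to NE 4 and 5, 7, 21 and 16 in EE 1 to EE 4. Scaled to CPM, EE 3 (3.17) and EE 4 (2.54) lay above all others. EE 2 (1.34) lay just above the highest NE library (1.31, NE 3), and EE 1 (1.06) lay within the NE range. Fitted without the filter, Wnt7a was the seventh member of 29 with an unadjusted p under 0.05, against 9.69% of 16130 genes. Its log2 difference in that fit was 1.20, against 1.06 for Wnt10a. Wnt11 had 3 to 13 counts and Wnt3 had 0 to 13. The 0 counts of Wnt3 in EE 2 allow a level of up to 0.574 CPM there, an upper limit from 3 counts that covers counting error only.

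**Figure D3:**
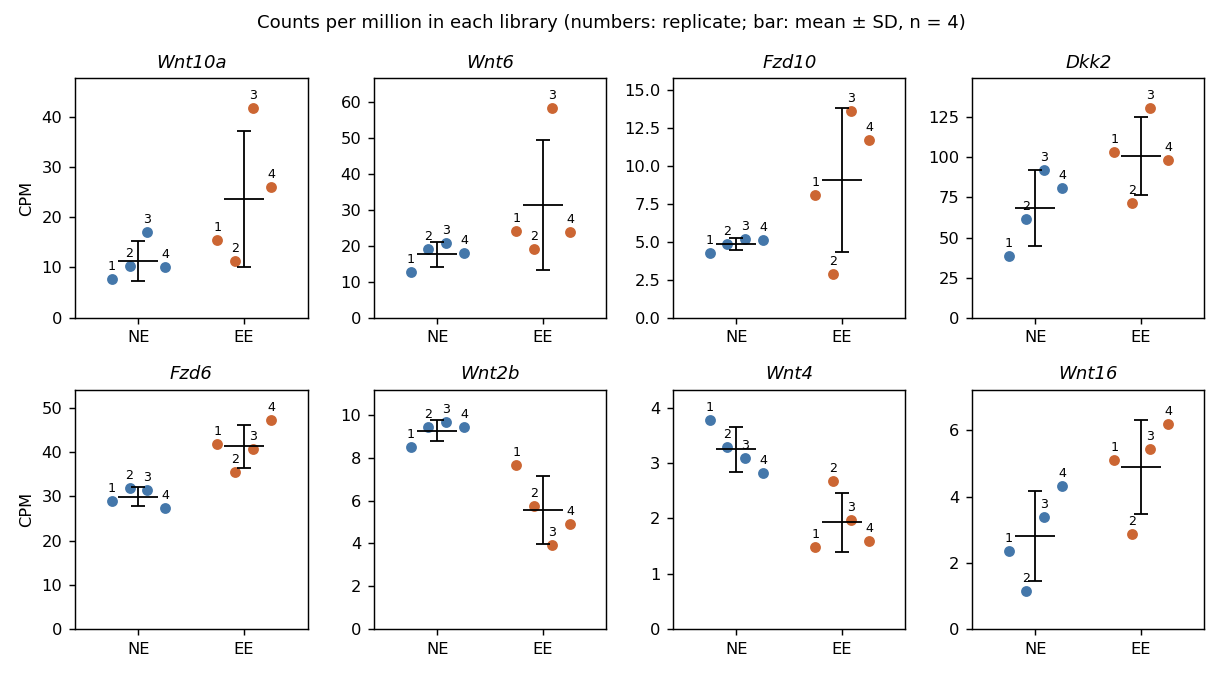
CPM in each library for the 8 members with the smallest p, with points numbered by replicate and bars for mean ± SD (n = 4 per group). EE 3 is the highest point for Wnt10a, Wnt6, Fzd10 and Dkk2, EE 2 lies within or below the NE points in those 4 genes and in Wnt16, and the groups are separate only in Fzd6, Wnt2b and Wnt4.

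Among the receptors, Fzd6 and Fzd10 were the 2 Frizzled genes with higher EE means at an unadjusted p under 0.05. Fzd6 (chromosome 15, 39006034 to 39038188, plus strand) was at 29.1, 32.0, 31.4 and 27.3 CPM in NE and at 41.8, 35.6, 40.8 and 47.4 CPM in EE. Every EE library lay above every NE library. The difference was modest in size, 0.47 (SE 0.13, adjusted p = 0.520 by edgeR) on the log2 scale or 1.38-fold, and stayed between 0.40 and 0.53 when any 1 library was left out. An exon of Fzd6 overlaps a gene on the opposite strand, whose reads could be included if counting ignored the strand. Fzd10 (chromosome 5, 128600844 to 128604093, plus strand), a beta-catenin-type receptor, was at 4.26, 4.87, 5.16 and 5.14 CPM in NE and at 8.07, 2.87, 13.6 and 11.7 CPM in EE. EE 1, EE 3 and EE 4 lay above all NE libraries and EE 2 below all of them. EE minus NE for Fzd10 was 0.91 (SE 0.39, adjusted p = 0.520 by edgeR) on the log2 scale, 0.78 without EE 4, 0.66 without EE 3 and 1.20 without EE 2. Without EE 2 its edgeR adjusted p was 0.0954, the lowest of any member in any of the fits, and over the fits it ran up to 0.843.

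Fzd5, the most abundant receptor, was at 117, 116, 129 and 80.6 CPM in NE and at 97.9, 102, 52.1 and 87.4 CPM in EE. The groups overlapped, with NE 4 below 3 of the EE libraries and EE 3 lowest of all. EE 3 was also the lowest library for the summed epithelial markers, and their part in the Fzd5 values was not tested. The log2 difference of Fzd5 was −0.39 (SE 0.22, adjusted p = 0.547 by edgeR), −0.41 without EE 4 and −0.21 without EE 3. Its closest relative Fzd8 differed by −0.34 (SE 0.26) on the log2 scale, and between −0.56 and −0.17 when single libraries were left out, with the value nearest 0 without EE 4. Fzd4, the receptor of Norrin in retinal vessels, was at 8.53, 10.7, 10.5 and 9.61 CPM in NE and at 11.3, 8.04, 6.19 and 6.82 CPM in EE. EE 1 was the highest of all 8 and the other 3 EE libraries were the lowest. For Fzd4 the log2 difference was −0.30 (SE 0.22, adjusted p = 0.616 by edgeR), −0.22 without EE 4, −0.18 without EE 3 and −0.49 without EE 1.

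Fzd1 and Fzd7 were nearly level across libraries. Fzd1 was at 48.2, 41.1, 41.7 and 39.3 CPM in NE and at 44.0, 40.4, 46.2 and 37.4 CPM in EE, and Fzd7 stayed between 26.2 and 32.0 CPM in all 8. The log2 difference was −0.02 (SE 0.12, adjusted p = 0.957 by edgeR) for Fzd1 and −0.11 (SE 0.12, adjusted p = 0.713 by edgeR) for Fzd7. Fzd2, Fzd3 and Fzd9 differed by −0.13, 0.00 and −0.04 with standard errors of 0.26, 0.19 and 0.33. Leaving out single libraries moved them between −0.33 and 0.00, −0.06 and 0.12, and −0.23 and 0.17, respectively. The summed level of the 10 Frizzled genes was 47.1 ± 4.40 CPM per kb in NE and 45.6 ± 1.87 in EE (SD, n = 4 each). The Wnt sum was 23.7 ± 4.23 CPM per kb in NE and 34.7 ± 15.9 in EE, with EE 3 at 58.2 and EE 2 at 23.3. Both sums overlapped between the groups.

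Of the R-spondins, Rspo3, which the stroma supplies to crypts, was at 7.26, 5.59, 5.07 and 4.48 CPM in NE and at 3.18, 7.85, 4.68 and 0.951 CPM in EE. EE 2 was the highest library and EE 4, with 6 counts, the lowest. The log2 difference of Rspo3 was −0.43 (SE 0.47, adjusted p = 0.730 by edgeR) and −0.08 without EE 4. Rspo1 was at 1.42, 1.86, 2.25 and 0.663 CPM in NE and at 1.70, 1.72, 0.453 and 0.634 CPM in EE, on 3 to 24 counts per library. Its groups overlapped widely, and EE minus NE was −0.55 (SE 0.51, adjusted p = 0.676 by edgeR) on the log2 scale, −0.36 without EE 4 and −0.26 without EE 3.

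Among the secreted Frizzled-related genes, Sfrp1 was far lower in 1 library. It was at 26.8, 27.1, 24.3 and 27.3 CPM in NE and at 18.3, 28.9, 23.0 and 2.70 CPM in EE. EE 1, EE 2 and EE 3 lay on both sides of the narrow NE range, and EE 4 lay far below it. The log2 difference of Sfrp1 was −0.54 (SE 0.47, adjusted p = 0.663 by edgeR) and −0.17 without EE 4, and limma-voom gave −1.01 with all libraries. EE 4 was also the lowest of 8 for Rspo3, Wnt5a, Fzd8 and Fzd1, and for the summed fibroblast and smooth muscle markers given above. The part of those cells in the EE 4 values was not tested.

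Sfrp2 was not low in that library. It was at 3.16, 2.87, 3.28 and 2.98 CPM in NE and at 0.637, 5.17, 4.08 and 4.12 CPM in EE, so EE 1 lay below and the other 3 EE libraries above all NE libraries. The log2 difference of Sfrp2 was 0.20 (SE 0.44, adjusted p = 0.867 by edgeR), 0.13 without EE 4, 0.53 without EE 1 and −0.02 without EE 2. Sfrp5 and Sfrp4 did not pass the filter. Sfrp5 had 8, 7, 13 and 3 counts in NE 1 to NE 4 and 6, 3, 4 and 6 in EE 1 to EE 4, which is 0.497 to 1.26 CPM in NE and 0.574 to 1.27 CPM in EE, with overlapping groups. Sfrp4 had 6 to 29 counts in 7 libraries and 0 in EE 4, where a count of 0 allows up to 0.476 CPM.

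**Figure D4:**
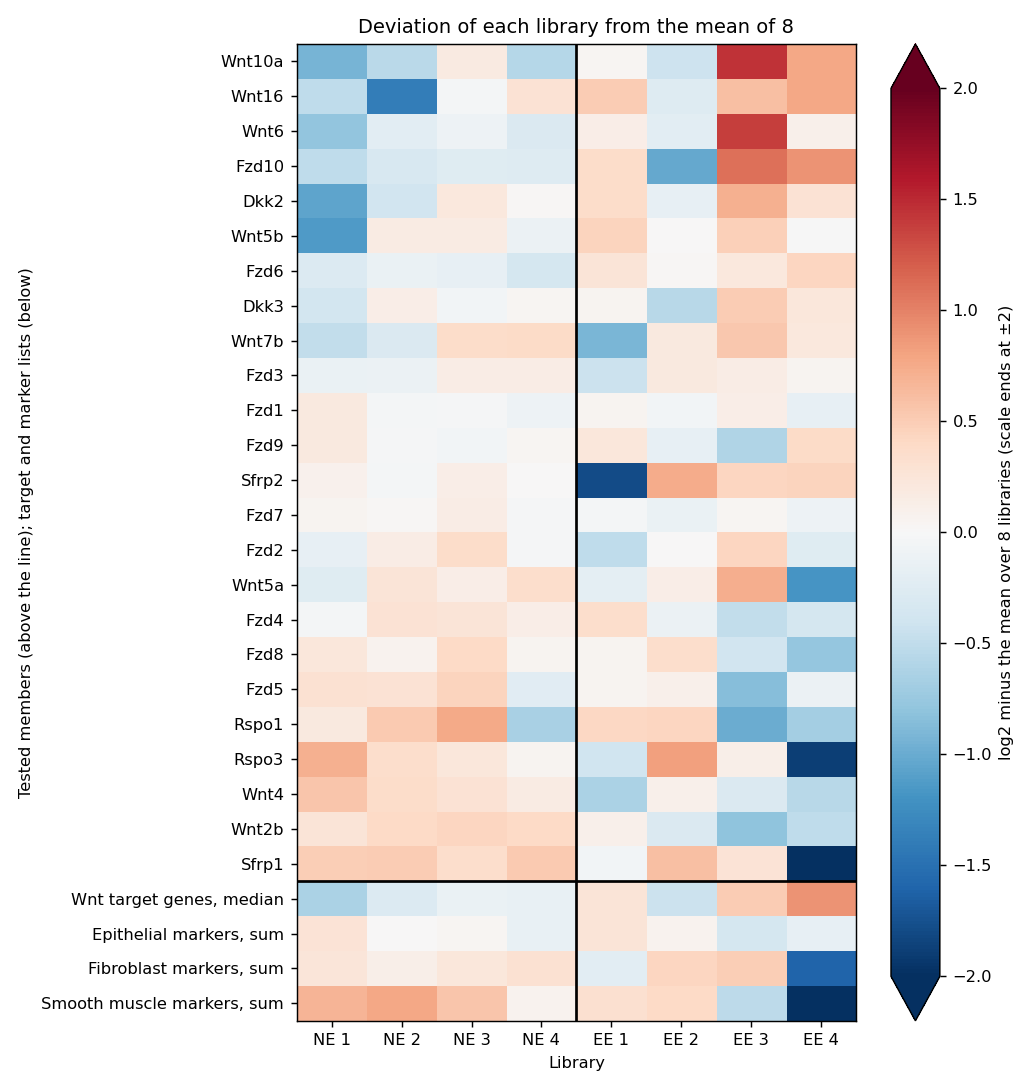
Log2 CPM of the 24 tested members in each library minus the gene's mean over 8 libraries (colour, scale from −2 to 2), with the median of 18 Wnt target genes and the log2 summed CPM of 3 marker lists, each minus its mean, below the line. EE 4 is blue for Sfrp1, Rspo3, fibroblast markers (−1.61) and smooth muscle markers (−2.28), while Wnt10a, Wnt6 and Fzd10 are reddest in EE 3.

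The Dickkopf genes had higher EE means with overlapping groups. Dkk2 (chromosome 3, 132085292 to 132180304, plus strand) was at 38.4, 61.5, 92.3 and 80.9 CPM in NE and at 104, 71.4, 131 and 98.3 CPM in EE. EE 1, EE 3 and EE 4 lay above all NE libraries and EE 2 within their range, and NE 1 was the lowest of 8. The log2 difference of Dkk2 was 0.56 (SE 0.26, adjusted p = 0.520 by edgeR) and 0.59 without EE 4, with values from 0.37 to 0.75 when any 1 library was left out. Dkk3 was at 52.6, 74.8, 65.6 and 69.8 CPM in NE and at 70.3, 46.1, 96.4 and 79.7 CPM in EE. Its lowest value was in EE 2 and its highest in EE 3, and EE minus NE was 0.16 (SE 0.21, adjusted p = 0.772 by edgeR) on the log2 scale, 0.13 without EE 4 and 0.01 without EE 3.

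The highest and lowest values were unevenly spread over the libraries. EE 3 held the highest of 8 values in 9 of the 24 members, where it did so in 15.5% of all genes tested: Wnt10a, Wnt6, Wnt5a, Wnt5b, Wnt7b, Fzd10, Fzd2, Dkk2 and Dkk3. It also held the lowest in 5, among them Wnt2b and Fzd5 (16.6% of all genes). EE 4 held the highest value in 3 and the lowest in 5 members, against 25.9% and 26.0% of all genes. For 18 Wnt target genes of crypt cells the median of log2 CPM minus the mean over libraries was −0.64, −0.27, −0.14 and −0.15 in NE 1 to NE 4 and 0.26, −0.42, 0.51 and 0.90 in EE 1 to EE 4. EE 2 lay within the NE range of that median, as it did for Wnt10a, Wnt6, Dkk2 and Wnt16. The target median was highest in EE 4, whereas Wnt6, Wnt10a and Dkk2 were highest in EE 3.

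The other surface and extracellular genes of the pathway were read from a list of 33, of which 29 had rows and 27 were tested. None passed at an adjusted p under 0.05 with edgeR, DESeq2 or limma-voom. The authors' deposited table listed 6 of the 29 (Apcdd1, Lgr5, Notum, Rnf43, Wif1 and Znrf3) with an FDR under 0.05, each with higher EE columns, where 1.07% of all genes did. Of the 27, 18 had log2 fold changes above 0 (50.3% of all genes tested), and the median was 0.17 against 0.00 over all genes. Without the filter 19 of 29 were above 0 with a median of 0.09, and 15 of 27 without EE 4, with a median of 0.10 (0.01 over all genes). With an unadjusted edgeR p under 0.05 there were 8 of the 27, all with higher EE means (5.73% of genes). Wif1, a secreted inhibitor that binds ligands, was at 91.9, 182, 156 and 229 CPM in NE and at 273, 146, 507 and 302 CPM in EE, with its peak in EE 3 like Wnt6 and Dkk2. Its groups overlapped through EE 2, and EE minus NE was 0.90 (SE 0.36, adjusted p = 0.520 by edgeR) on the log2 scale. Notum, the enzyme that strips the lipid from Wnt ligands, was at 28.7, 50.2, 51.6 and 52.7 CPM in NE and at 61.6, 38.7, 132 and 104 CPM in EE, again with EE 2 inside the NE range and EE 3 highest. Its log2 difference was 0.88 (SE 0.34, adjusted p = 0.520 by edgeR). Znrf3 and Rnf43, the ligases that clear Frizzled, differed by 0.88 (SE 0.29) and 0.71 (SE 0.26), and by 0.59 and 0.48 without EE 4. Both are in the target list as well, as are Notum, Lgr5 and the membrane-bound inhibitor Apcdd1 (0.94, SE 0.28). Of the 6 genes with an FDR under 0.05 in the authors' deposited table, only Wif1 is outside the target list. The pathway counts are therefore not separate from those of the target list and are no independent evidence of a direction.

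Gpc4, a cell-surface proteoglycan, and Porcn, the acyltransferase that adds the lipid to Wnt ligands, were the 2 pathway genes whose groups did not overlap (4.89% of all genes tested). Gpc4 was at 41.4, 41.1, 46.2 and 41.9 CPM in NE and at 55.6, 54.0, 55.9 and 50.6 CPM in EE, and every EE library lay above every NE library. The log2 difference of Gpc4 was 0.34 (SE 0.10, adjusted p = 0.520 by edgeR). Porcn was at 4.74, 4.16, 3.66 and 3.98 CPM in NE and at 3.61, 3.06, 3.32 and 2.70 CPM in EE, and NE 3 and EE 1 were only narrowly apart. For Porcn the difference was −0.38 (SE 0.24, adjusted p = 0.573 by edgeR). Wls, the carrier that brings ligands to the surface, differed by 0.00 (SE 0.14). All 18 target genes had log2 fold changes above 0, with a median of 0.70, and 0 of them passed at an adjusted p under 0.05 with edgeR, DESeq2 or limma-voom, with 12 at an unadjusted edgeR p under 0.05 and higher EE means (5.73% of genes). Their median was 0.54 without EE 4. The authors' deposited table listed 10 of the 18 with an FDR under 0.05, each with higher EE columns (1.07% of genes). The 6 with the smallest p were Tcf7, Apcdd1, Nkd1, Sp5, Axin2 and Znrf3. Tcf7 and Axin2 differed by 0.90 (SE 0.24) and 0.86 (SE 0.28) on the log2 scale, and by 0.68 and 0.60 without EE 4. The feedback inhibitor Nkd1 was at 91.1, 123, 128 and 103 CPM in NE and at 199, 100.1, 290.4 and 323 CPM in EE. The transcription factor Sp5 was at 5.05, 7.74, 11.4 and 6.80 CPM in NE and at 12.7, 8.80, 24.3 and 21.7 CPM in EE, and in both genes EE 2 lay within the NE range. The target genes were known to stand higher in the EE libraries when the list was drawn up, so their count is no independent evidence of a direction.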

How the data were processed

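Distal colon RNA of 4 EE and 4 NE samples was read as single 50-base reads. The submitters' processing notes name Novoalign 2.08.01, DESeq 1.14.0 and build mm10. The annotation, counter and strand setting were not given in the sources used here, and exons of 7 members (Fzd5, Fzd6, Rspo3, Sfrp2, Wnt5a, Wnt7b and Wnt11) overlap another gene on the opposite strand. The authors deposited 1 table of raw read counts per gene and library, with their own log2 fold change and FDR (an adjusted p-value). Its smallest total per gene is 12 counts.

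The analysis used edgeR 4.0.16 in R 4.3.3: filterByExpr, TMM scaling, the robust quasi-likelihood test without covariates, and Benjamini-Hochberg adjustment at 0.05. It was tested on simulated counts. CPM use TMM-scaled library sizes (log2 CPM: prior count 2), and a standard error is the log2 fold change over the square root of F. The biological coefficient of variation was 0.219. Library totals set the precision: 3 counts are 0.637 CPM in the smallest library. Exon lengths and coordinates come from GENCODE M21 (GRCm38) and upstream sequences from RefSeq. Alternatives were DESeq2 1.42.0, limma-voom (limma 3.58.1), RLE and upper-quartile scaling, no filter, a filter at 1 CPM in 4 libraries, a replicate block, leaving out single libraries, a threshold of 0.1, other gene lengths and other CPM minimums. The labels name no batch.

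The members and the pathway, target and marker lists were chosen with earlier results of these data known. Values in every library are given for the 3 members per family with the highest CPM per kb, the 10 with the smallest p and those that did not overlap. The pathway and target lists name the 6 genes with the smallest p, some by their log2 difference alone. Other genes of these lists, and Wnt7a, were chosen after their values were seen.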

Additional observations from a re-analysis of the deposited data

Results flagged for a closer look

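Each group of 4 libraries was searched for a single library far from the other 3, in the 18 members whose library values are given (36 groups). This found 2 in the 36 groups, which is close to the rate of about 1 in 20 groups that chance alone gives. Wnt6 was at 58.3 CPM in EE 3 against 19.1 to 24.2 CPM in the other EE libraries. Sfrp1 was at 24.3 CPM in NE 3 against 26.8 to 27.3 CPM in the other NE libraries.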

How the results depend on the processing

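DESeq2, which gave no adjusted p for 22 genes, called 16 genes in place of 0, and edgeR without EE 2 called 1. Over the fits that left out 1 library the count of genes ran from 0 to 1. No family member and no pathway gene was called at 0.05 by any of the 15 alternative fits or at 0.1 by the main fit. Without EE 2, Fzd10 had an edgeR adjusted p of 0.0954, which is under 0.1. For an unadjusted p under 0.05, edgeR gave 2 members without NE 1, 3 without EE 3 and 8 without EE 2, against 6 with all libraries (665, 1093 and 2745 genes against 1357). Of 255 alternative fits of 17 named members, 250 kept the direction and the side of the threshold. The other 5 reversed the sign of a small log2 difference, and the cause was not tested. Leaving out single libraries moved Fzd1 between −0.062 and 0.045, with 0.045 without NE 1 and 0.040 without EE 4, Sfrp2 between −0.021 (without EE 2) and 0.53, and Wnt5a between −0.46 and 0.15 (without EE 4). With limma-voom Sfrp2 was at −0.067. No pairing of the samples by replicate number was seen, though a weak one could go unseen in this check. Deviations of same-numbered libraries correlated at 0.254, 0.0101, −0.180 and −0.0374, and 2 of 8 libraries were closest to their own number. With the replicate block 0 genes, 0 family members and 0 pathway genes were called, 7 members and 1406 genes had an unadjusted p under 0.05, and Wnt10a stood at 0.97, Wnt6 at 0.72, Fzd6 at 0.46 and Wnt2b at −0.78 on the log2 scale. Measured with the longest transcript or with no length, the 10 highest members were the same 10, but their order moved. With the longest transcript 11 members changed rank, by at most 3 places. With no length 24 changed, by at most 9, and Fzd5 stood first, before Dkk2 and Dkk3. At 0.5, 1 and 2 CPM, 29, 27 and 21 members passed. Depth limits Fzd9, Rspo1, Sfrp4, Sfrp5, Wnt3, Wnt7a, Wnt7b and Wnt11, which had at most 29 counts in any library.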

Other observations

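Several partners of these ligands at the cell surface were abundant in both groups, and none passed the edgeR test, though Lgr5 had an FDR under 0.05 in the authors' deposited table. Lgr4, a receptor of R-spondins, had a mean of 386 ± 28.8 CPM over the NE libraries and 344 ± 38.5 over the EE libraries (SD, n = 4 each, edgeR adjusted p = 0.618). The stem cell receptor Lgr5 was at 34.3, 37.8, 48.4 and 51.5 CPM in NE and at 47.4, 33.5, 85.5 and 108 CPM in EE. EE 3 and EE 4 lay above all NE libraries and EE 2 below them, and EE minus NE was 0.68 (SE 0.32, adjusted p = 0.520 by edgeR) on the log2 scale and 0.39 without EE 4. The co-receptor Lrp6 averaged 149.9 ± 16.4 and 158 ± 35.5 CPM. Lrp5 averaged 78.7 ± 10.2 and 109 ± 48.6 CPM, with 179 CPM in EE 4 against 68.7 to 106 in the other EE libraries. Ryk and Ror2, receptors of the beta-catenin-independent branch, differed by 0.08 (SE 0.10) and 0.17 (SE 0.17). Frzb, a relative of the secreted Frizzled-related genes outside the symbol rule, was at 6.32, 4.44, 3.57 and 3.48 CPM in NE and at 2.34, 3.45, 5.29 and 1.27 CPM in EE, lowest in EE 4 like Sfrp1.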
